A study of Mus musculus with 75 samples.

Results

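The cytosolic ribosomal protein genes of the kidney were taken by symbol, as Rpl or Rps followed by a digit, with Rplp0, Rplp1, Rplp2, and Rpsa added and with pseudogene symbols and the Rps6k kinases left out. The rule gave 86 of the 32245 rows of the count table. Of these, 43 encode proteins of the large subunit, 31 proteins of the small subunit (Rpsa among them), and 3 the proteins of the stalk. Another 8 are paralog rows (Rpl3l, Rpl7l1, Rpl10l, Rpl22l1, Rpl36al, Rpl39l, Rps27l, and Rps27rt), and the last is Rps19bp1, whose product binds the ribosomal protein Rps19 and is not a subunit.

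Each ribosome holds a single copy of most of these proteins, with ribosomal RNA, so that their genes are known for being expressed together in almost every cell. Their mRNAs are known as TOP mRNAs, which begin with a C followed by a run of C and T bases, and whose translation is controlled through mTOR. In the kidney, as elsewhere, making ribosomes is a large part of what a growing or dividing cell does, while the paralogs replace or accompany the core protein in certain cells.

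Unilateral ureteral obstruction (UUO) ligates 1 ureter, and the contralateral kidney (CL) served as its comparison 3 days later. Whole-kidney RNA of 75 kidneys was sequenced in 3 arms of 4 groups, all from mice of 8 to 16 weeks given carprofen (5 mg/kg) around surgery. In the ABTAA arm, C57BL6/J or other wild-type mice received ABTAA, an antibody that binds ANGPT2 and activates the endothelial receptor TIE2, or the same dose (25 mg/kg) of human IgG Fc (8 CL and 8 UUO libraries with IgG, 7 and 7 with ABTAA). In the Veptp arm, VeptpiECKO mice were floxed for Veptp, the gene of a phosphatase that acts on TIE2, and carried Cdh5-CreERT2, which drives deletion in endothelium after tamoxifen (3 doses of 2 mg at 4 weeks of age). Their controls, VeptpWT, were Veptp wt/lox mice that also carried Cdh5-CreERT2 and were not given tamoxifen (7 VeptpWT CL, 8 VeptpWT UUO, 6 VeptpiECKO CL, and 8 VeptpiECKO UUO libraries). The 8 VeptpWT UUO libraries outnumber the VeptpWT mice in the study's methods, and whether any of them share a mouse is not given in the labels. In the Pdgfb arm, PdgfbiKO mice were floxed for the growth factor gene Pdgfb with Actb-CreERT2, active in the whole body. They received tamoxifen (3 doses of 2 mg) 1 week before the experiments, and whether their controls did is not given in the labels. PdgfbWT controls were Cre-negative Pdgfb wt/lox or lox/lox mice (4 libraries in each of the 4 groups), and 2 of the PdgfbWT CL libraries were sham-operated kidneys that the labels do not mark. The Veptp and Pdgfb lines were on a mixed background.

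Library totals ran from 172827 to 2341800 counts (median 757897). Library names came in 2 forms, 45 plain (such as B4) and 30 split, with a letter and a number joined by a low line (such as N_9). The ABTAA and Veptp arms held both forms in each group, while the Pdgfb arm held plain names alone. The rows Gm42418 and AY036118, which overlap ribosomal RNA repeats, took 7.32% to 18.7% of the counts under plain and 3.89% to 5.91% under split names in the ABTAA arm. For the Veptp arm the ranges were 9.18% to 21.8% and 0.325% to 0.778%. Labels were checked on the deleted genes, on injury, and on tissue, with levels as CPM, the usual depth-normalized read count, after scaling each library by its TMM factor (a trimmed mean of ratios between libraries). Ptprb, which encodes VE-PTP, overlapped between genotypes (26.6 to 94.9 CPM in VeptpWT and 12.9 to 67.1 CPM in VeptpiECKO UUO libraries). Pdgfb was not lower in CL kidneys labelled PdgfbiKO (16.9 to 25.4 CPM) than in PdgfbWT CL kidneys (4.52 to 20.3 CPM), but was lower in UUO kidneys (34.0 to 41.4 against 44.1 to 58.9 CPM, without overlap), so these are called libraries labelled PdgfbiKO. The injury gene Havcr1 stood at 4.00 to 70.4 CPM in CL libraries apart from VeptpiECKO CL replicate 2 with 247 CPM, and at 300 to 1977 CPM in UUO libraries. Numbers 3, 4, 7, and 8 of the split names in the Veptp arm carry opposite genotypes in the CL and UUO kidneys, and all libraries were used as labelled. Exchanging the genotypes of those 4 UUO libraries, chosen after seeing the data, left 31 members called in VeptpWT and 6 in VeptpiECKO mice in place of the 35 and 8 given below. Proximal tubule markers (Lrp2, Slc34a1, Slc5a12, and Slc22a6) summed to at least 1059 CPM in every library.

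The bases around the start of a few members whose values are given below are shown because a TOP run would begin there. RefSeq windows on GRCm38.p6 hold the 10 bases before and the first 20 bases after the annotated start, with the longest run of C and T in capitals. The capitals span the annotated start in Rplp2 and Rpl38 and not in the other windows, so they need not be a TOP run. Rpl12 (chr2:32961702-32961731, plus strand), Rps12 (chr10:23787190-23787219, minus), Rplp2 (chr7:141447641-141447670, plus), and Rpl38 (chr11:114668570-114668599, plus) encode subunit or stalk proteins, and Rpl22l1 (chr3:28805498-28805527, plus), Rps27l (chr9:66946076-66946105, plus, the first of 2 entries), and Rpl36al (chr12:69184048-69184077, minus) are paralogs.
Rpl12: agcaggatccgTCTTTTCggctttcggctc
Rps12: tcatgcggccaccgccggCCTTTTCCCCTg
Rplp2: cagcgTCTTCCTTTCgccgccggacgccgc
Rpl38: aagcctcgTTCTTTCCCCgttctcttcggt
Rpl22l1: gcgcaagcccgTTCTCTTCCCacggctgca
Rps27l: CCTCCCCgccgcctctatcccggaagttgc
Rpl36al: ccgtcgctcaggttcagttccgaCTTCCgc

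Of the 86 members 66 had a promoter entry, 78 entries in all. A C at the annotated start base followed by 4 or more C or T was found in 14 of them (17.9%), against 2.5% of all 32851 entries. A run of this kind that began within 10 bases of the start was found in 42 (53.8%, against 30.7%). The 7 letters CCGGAAG, searched on both strands from 250 bases before to 50 after the start, lay in 27 member entries (34.6%) and in 8.9% of all. The Rps27l window shows them near its right end. These matches describe sequence alone, since annotated starts can be off by some bases.

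Ribosomal protein rows took a larger share of the counts in UUO than in CL kidneys. With libraries divided by mice and form of name into 10 sets, every UUO library lay above every CL library in 9. IgG-treated mice with plain names had 3.07% to 3.93% of their counts on members in CL and 4.21% to 5.39% in UUO kidneys, a ratio of the means of 1.38. Split names in the same mice gave 2.56% to 3.54% and 3.76% to 5.14% (ratio 1.54). In ABTAA-treated mice the shares were 2.92% to 4.02% and 4.15% to 4.86% with plain names, and 2.64% to 2.91% and 3.83% to 4.76% with split names (ratios 1.36 and 1.58). VeptpWT mice stood at 3.17% to 4.05% and 4.39% to 5.33% with plain names, but at 1.05% to 1.24% and 1.26% to 2.10% with split names (ratios 1.33 and 1.51). The set that overlapped was VeptpiECKO with plain names, which held 2 CL and 4 UUO libraries, at 3.34% to 3.96% in CL and 3.50% to 4.38% in UUO kidneys (ratio 1.08). Its upper CL value was that of CL replicate 2, set apart above by its Havcr1 level. VeptpiECKO libraries with split names did not overlap, at 1.16% to 1.54% and 1.85% to 1.99% (ratio 1.43). PdgfbWT kidneys went from 2.93% to 3.71% in CL to 4.20% to 4.73% in UUO (ratio 1.35), and libraries labelled PdgfbiKO from 3.11% to 3.43% to 3.84% to 4.21% (ratio 1.22). With the rows Gm42418 and AY036118 and the mitochondrial rows left out of the total, a setting chosen after seeing the data, 6 of the 10 sets did not overlap. The plain ABTAA set (up to 4.91% in CL, from 4.83% in UUO) and both VeptpWT sets (up to 4.99% and from 4.98% with plain names, up to 1.29% and from 1.28% with split names) then overlapped narrowly, and the plain VeptpiECKO set overlapped at 4.01% to 4.64% in CL and 4.19% to 5.32% in UUO. Mitochondrial rows took 2.34% to 5.12% of the counts in CL and 1.07% to 3.63% in UUO libraries. A share of counts moves with whatever else is in the library, and in whole kidneys fewer cells of a type and less RNA per cell cannot be told apart.

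**Figure D1:**
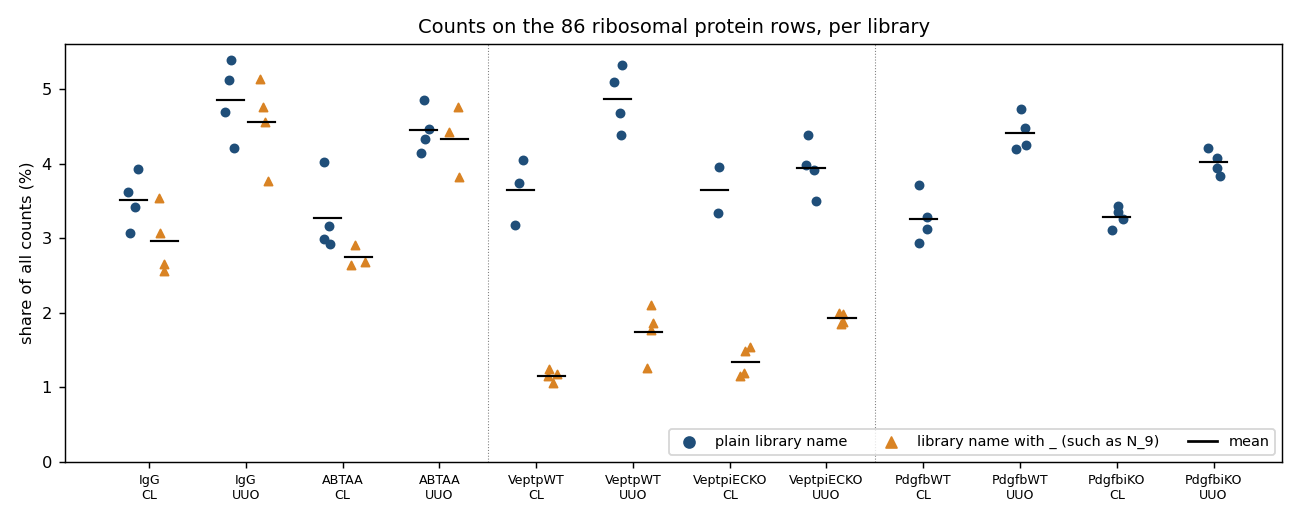
Share of each library's counts (y axis, %) that fell on the 86 ribosomal protein rows, by group (x axis), with 1 point per library, circles for plain and triangles for split names, and a black bar for the mean of each. UUO points lie above CL points in every set except VeptpiECKO with plain names, and split libraries of the Veptp arm lie at 1.05% to 2.10%, below all others.

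Gene by gene, with TMM factors and a term for the form of library name, the share of ribosomal protein mRNAs called higher after UUO exceeded that of all genes in IgG-treated, ABTAA-treated, and VeptpWT mice and under the label PdgfbiKO, and lay near it in VeptpiECKO and PdgfbWT mice. Other settings change this. Rpl22l1 in PdgfbWT mice was the only called member to rise more than 2-fold. Counts were fitted by edgeR's quasi-likelihood test in 1 model per arm, with a term for the form of library name in the ABTAA and Veptp arms. A member was called at an adjusted p under 0.05 over all genes tested in the arm (81 members tested in the ABTAA, 83 in the Veptp, and 82 in the Pdgfb arm). In IgG-treated mice 42 members were higher in UUO and 0 were lower, where 18.9% of all genes tested were higher and 21.4% lower (40.3% either way). The members' median log2 fold change was 0.35, beside 0.02 for all genes tested, and 77 of the 81 had a positive value. The IgG count was 21 without the term for the form of name, 26 by edgeR's exact test between the 2 groups, 8 in plain names alone, and 71 without TMM factors. The share of all genes called higher was 16.3%, 16.6%, 10.7%, and 30.9% in these, so that in plain names alone the members (9.88%) were near all genes. In ABTAA-treated mice 52 were higher and 0 lower, against 15.4% and 16.8% of all genes, with a median of 0.41 beside -0.00, and all 81 tested were positive. With the number shared by CL and UUO library names as a replicate block in the 6 split libraries of ABTAA-treated mice, 65 were called (80.2%, beside 14.4% of all genes called higher), against 39 in the same 6 libraries without the block (48.1%, beside 11.2%). Leaving out ABTAA UUO replicate 7 (library O_12) left 32 called. Without the term for the form of name 25 were called, by the exact test 23, and in plain names alone 10, against 12.6%, 11.4%, and 7.22% of all genes called higher. Thinned to the shallowest library, 32 (39.5%) were called with ABTAA, beside 5.63% of all genes.

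VeptpWT mice had 35 members higher and 0 lower of 83, against 16.6% and 17.3% of all genes, with a median of 0.33. In VeptpiECKO mice 8 were higher and 0 lower (10.7% and 10.8% of all genes), a share (9.64%) near that of all genes, with a median of 0.20 beside 0.01. Without the term for the form of library name, 0 members were called in either Veptp genotype by edgeR's quasi-likelihood test, where 10% and 4.47% of all genes were higher, and the members' medians were 0.38 and 0.46. In plain names alone 3 of 81 (3.7%) were called in VeptpWT mice, beside 7.3% of all genes. The members' share thus lay below that of all genes in both groups of mice without the term, and in VeptpWT mice in plain names alone. Without TMM factors 70 and 30 were called (84.3% and 36.1%), beside 24.5% and 17.7% of all genes. With the term, DESeq2 called 41 and 10 (49.4% and 12%), beside 17.7% and 11% of all genes. Thinned to the shallowest library, 3 (3.7%) and 0 members were called, beside 3.84% and 1.37% of all genes. PdgfbWT mice had 14 higher and 2 lower of 82, against 17.9% and 19.4% of all genes (37.3% either way), so that the share called higher (17.1%) was near that of all genes, with a median of 0.08 beside 0.04. Without TMM factors, 67 of 82 (81.7%) rose and 0 fell, beside 40.8% of all genes that rose, and all genes tested had a median of 0.41, while the members' median relative to that of all genes went from 0.04 to 0.05. Libraries labelled PdgfbiKO had 8 higher and 0 lower, against 3.95% and 2.42% of all genes (6.37% either way), with a median of 0.25 beside -0.00. Without TMM factors 25 (30.5%) were higher there, beside 5.19% of all genes. Thinned to the shallowest library, 1 (1.23%) was higher there and 6 (7.41%) in PdgfbWT mice, beside 0.861% and 8.16% of all genes, so that both shares were near that of all genes. Single libraries moved these counts: without VeptpWT CL replicate 2, 5, or 6 or UUO replicate 6 the VeptpWT count was 22, 23, 20, or 19, and without CL replicate 3 it was 54. In VeptpiECKO mice it was 3 to 5 without CL replicate 1, 3, or 5 or UUO replicate 5, 6, 7, or 8. In PdgfbWT mice it was 9 without CL replicate 3 and 8 without UUO replicate 4, and under the label PdgfbiKO 3 without CL replicate 2 or 4 or UUO replicate 2 or 4 and 5 without CL replicate 1.

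**Figure D2:**
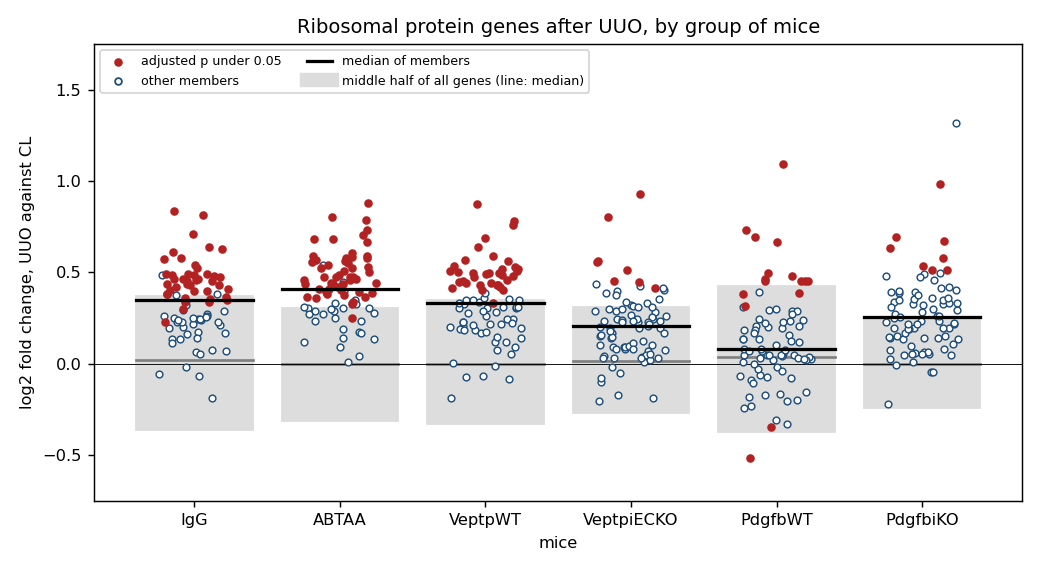
Log2 fold change of UUO against CL (y axis) of each tested member in the 6 groups of mice (x axis), with filled points for members at an adjusted p under 0.05, black bars for the members' median, and grey boxes and lines for the quartiles and median of all genes tested. The members' medians lie between 0.08 (PdgfbWT) and 0.41 (ABTAA), each above the grey line.

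These changes came beside others of cell type. Proximal tubule markers fell in 4 of 4 in IgG-treated, ABTAA-treated, and PdgfbWT mice, in 3 of 4 in VeptpWT and VeptpiECKO mice, and in 2 of 4 under the label PdgfbiKO. Their sum ran from 3555 to 5752 CPM in CL and from 1515 to 3678 CPM in UUO libraries of the ABTAA arm, from 4027 to 6865 and from 1802 to 4290 CPM in the Veptp arm, and from 4369 to 5200 and from 1059 to 4059 CPM in the Pdgfb arm. Of 6 leukocyte markers 4 were tested, and all of these rose except in libraries labelled PdgfbiKO, where 2 did. The leukocyte sum ran from 51.6 to 237 CPM in CL and from 224 to 773 CPM in UUO libraries of the ABTAA arm, from 27.3 to 348 and from 176 to 627 CPM in the Veptp arm, and from 43.3 to 134 and from 235 to 538 CPM in the Pdgfb arm. Cd3e and Ms4a1, the T and B cell markers, were at 0 in 46 and 49 of the 75 libraries. Fibroblast markers (Col1a1, Dcn, and Pdgfrb) rose in 3 of 3 in IgG-treated, ABTAA-treated, VeptpWT, and PdgfbWT mice, in 2 of 3 in VeptpiECKO mice, and in 1 of 3 under the label PdgfbiKO, with summed levels of 34.9 to 108 CPM in CL and 231 to 406 CPM in UUO libraries of the ABTAA arm. In the other arms the fibroblast sum was 44.5 to 167 and 89.4 to 573 CPM (Veptp), and 39.1 to 98.1 and 106 to 376 CPM (Pdgfb). Loop of Henle markers (Umod and Slc12a1) fell in 2 of 2 in all comparisons but that of PdgfbiKO (1 of 2), with medians of -1.12 to -1.63 in those 5. Their sum ran from 4012 to 8684 CPM in CL and from 2018 to 4449 CPM in UUO libraries of the ABTAA arm, from 2686 to 6519 and from 1109 to 5076 CPM in the Veptp arm, and from 3460 to 6527 and from 1891 to 4386 CPM in the Pdgfb arm. Distal and collecting duct markers fell in 3 of 3 in IgG-treated, ABTAA-treated, VeptpWT, and VeptpiECKO mice, in 2 of 3 in PdgfbWT mice, and in 1 of 3 under the label PdgfbiKO. Of 3 endothelial markers, 2 rose with IgG and 1 each with ABTAA and in PdgfbWT mice, and 1 fell in VeptpiECKO mice. Of 2 red cell markers, 2 fell with IgG and 1 each with ABTAA and in PdgfbWT mice. Of 2 podocyte markers, 1 each fell with IgG (median -0.38) and in PdgfbWT mice (median -0.25). The part of these cell types in the rise of ribosomal protein mRNA was not tested.

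By role, small subunit genes rose by a median of 0.40 in IgG-treated mice (18 of 31 called) and large subunit genes by 0.32 (22 of 43 called). In ABTAA-treated mice the medians were 0.48 (21 called) and 0.38 (28 called), and in VeptpWT mice 0.44 (19 called) and 0.29 (15 called). The difference between subunits was not tested. Stalk genes had medians of 0.43, 0.45, and 0.30 in the same mice, with 2, 2, and 0 of 3 called. The 4 paralogs tested in the ABTAA arm had medians of 0.00 with IgG (0 called) and 0.08 with ABTAA (1 called). In VeptpiECKO mice 5 large, 2 small, and 1 paralog row were called, in PdgfbWT mice 7 large, 5 small, 1 stalk, and 1 paralog row were called higher and 1 small subunit and 1 paralog row lower, and under the label PdgfbiKO 4 large, 2 small, and 2 paralog rows were called higher.

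The 6 comparisons share no library, but those of the same arm come from 1 model. Of the 81 members tested in all of them, 55 had a positive value in each. Of all 86 members, 26 were called higher in none (the 5 not tested in all 6 among them), 13 in 1, 15 in 2, 19 in 3, 7 in 4, 5 in 5, and 1 in all 6. The same counts over all genes were not taken, so these describe the members alone. The one called in all 6 was Rpl12. Those in 5 were Rps12 and Rpl22l1 and, named after their values were seen, Rpl10a, Rpl17, and Rpl39.

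Most calls of the single genes described next depended on the fit. Of their 46 calls after UUO, 40 were lost in 1 or more of the other fits that leave out no single library, while 0 were lost by DESeq2 and 0 with TMM factors computed without the members. Plain names alone ended 25 of the 36 calls of the ABTAA and Veptp arms, and a fit without the term for the form of name 19 of the same 36. Thinning to the shallowest library ended 24 of the 46, and edgeR's exact test 23. The 6 kept in every such fit were those of Rpl12 with IgG and with ABTAA, Rps16 and Rpsa with IgG, Rpl22l1 in PdgfbWT mice, and Rps27l under the label PdgfbiKO.

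**Figure D3:**
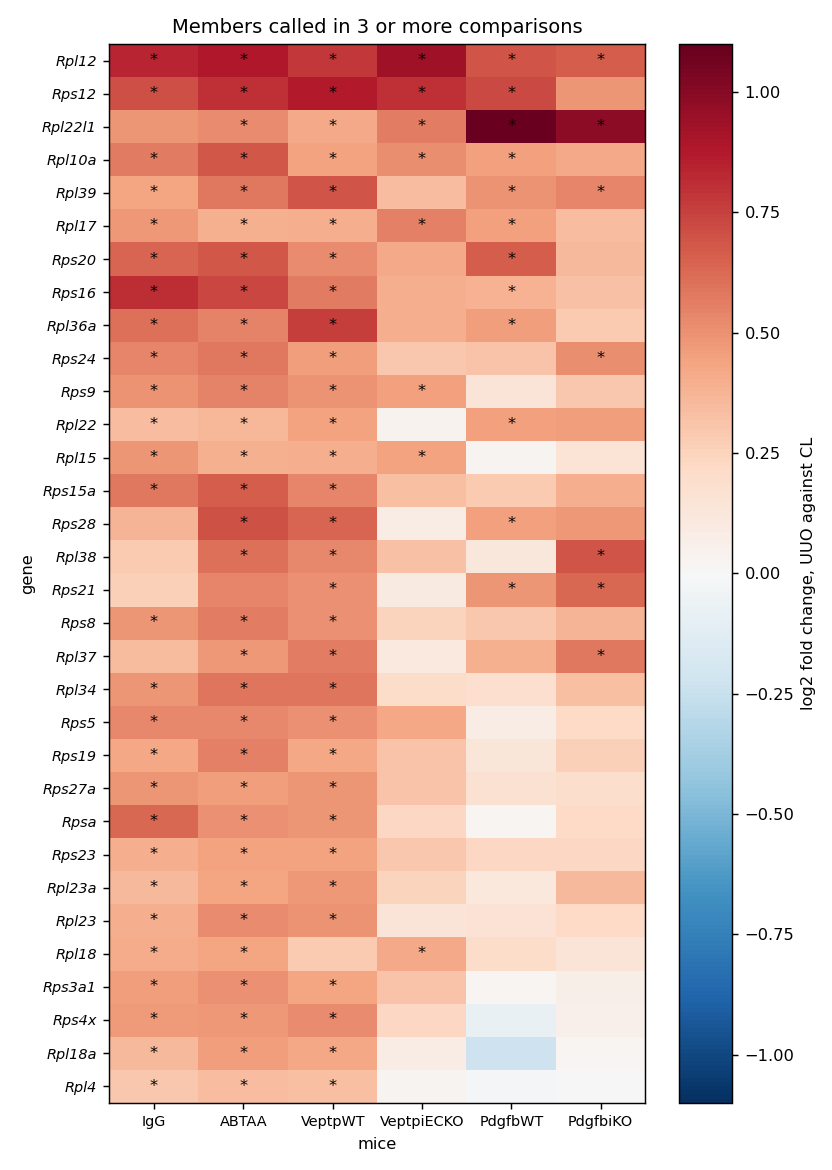
Log2 fold change of UUO against CL (colour, red for higher) of the 32 members called higher in 3 or more of the 6 comparisons (rows), by mice (columns), with a star at an adjusted p under 0.05. Rpl12 carries a star in all 6 columns, and Rpl22l1 reaches 1.09 in the PdgfbWT column.

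Rpl12, a large subunit protein at the base of the stalk, was at 222, 229, 264, and 218 CPM in IgG CL kidneys with plain names, against 339, 459, 464, and 336 CPM after UUO. With split names it was at 167, 129, 115, and 138 CPM in IgG CL and at 294, 305, 255, and 188 CPM in IgG UUO libraries. CL and UUO did not overlap within either form. The same held in ABTAA-treated mice, with 203, 232, 211, and 319 CPM in plain CL and 378, 376, 337, and 371 CPM in plain UUO libraries, and with 121, 103, and 127 CPM and 221, 299, and 332 CPM under split names. Its log2 fold change was 0.84 (standard error, SE, 0.13, adjusted p = 1.47e-06) with IgG and 0.88 (SE 0.14, adjusted p = 2.97e-06) with ABTAA.

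In VeptpWT mice Rpl12 stood at 284, 233, and 324 CPM in plain CL and 430, 398, 420, and 496 CPM in plain UUO libraries, but at 25.9, 35.7, 39.1, and 38.8 CPM and 50.9, 85.2, 72.4, and 52.3 CPM with split names. VeptpiECKO libraries had 242 and 257 CPM and then 559, 347, 395, and 284 CPM with plain names, and 30.6, 41.9, 27.1, and 40.8 CPM and then 76.4, 75.2, 74.4, and 84.5 CPM with split names. Once the forms are kept apart, CL and UUO again did not overlap, and the log2 fold changes were 0.78 (SE 0.15, adjusted p = 7.32e-05) and 0.93 (SE 0.16, adjusted p = 5.56e-05). In the Pdgfb arm Rpl12 rose from 209, 246, 176, and 212 CPM to 331, 352, 297, and 386 CPM in PdgfbWT (0.69, SE 0.13, adjusted p = 9.05e-05). Under the label PdgfbiKO it rose from 216, 222, 203, and 192 CPM to 303, 372, 304, and 339 CPM (0.67, SE 0.13, adjusted p = 0.00231). In all 10 sets of mice and form, every UUO library had more Rpl12 than every CL library, which held for 0.523% of the 9554 genes tested in all arms and for 1 of the 81 members. No single library left out removed a call of Rpl12, but other fits did. Thinned to the shallowest library, the adjusted p of Rpl12 was 0.0768 in PdgfbWT, 0.0624 under the label PdgfbiKO, 0.291 in VeptpWT, and 0.253 in VeptpiECKO mice. Without the term for the form of name it was 0.430 in VeptpWT and 0.392 in VeptpiECKO mice, by the exact test 0.428 and 0.343, and in plain VeptpiECKO libraries alone 0.668. The fold change was positive in each of these.

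Rps12, a small subunit protein, did not overlap between CL and UUO in 8 of the 10 sets, as 3.53% of all genes and 2 of the 81 members did in 8 or more. A count of 4 or more sets was reached by 10 members (11.6% of all genes), a share near that of all genes. Rps12 was at 110, 119, 67.6, and 122 CPM in PdgfbWT CL kidneys, against 163, 191, 143, and 204 CPM after UUO, and overlapped with IgG and plain names (141 to 169 CPM in CL, 159 to 263 CPM in UUO). Its log2 fold change was 0.71 (SE 0.17, adjusted p = 0.00107) with IgG, 0.80 (SE 0.18, adjusted p = 0.000614) with ABTAA, 0.87 (SE 0.15, adjusted p = 1.92e-05) in VeptpWT, 0.81 (SE 0.17, adjusted p = 0.000547) in VeptpiECKO, and 0.73 (SE 0.16, adjusted p = 0.000712) in PdgfbWT mice. Under the label PdgfbiKO, Rps12 was 0.48 (SE 0.17, adjusted p = 0.0892). Each of its calls was lost in some other fit, with positive values: without the term for the form of name the adjusted p of Rps12 was 0.0725 (IgG), 0.0581 (ABTAA), 0.359 (VeptpWT), and 0.507 (VeptpiECKO). By the exact test it was 0.0642 (IgG), 0.335 (VeptpWT), and 0.534 (VeptpiECKO), in plain names alone 0.0826 (IgG) and 0.745 (VeptpiECKO), and after thinning 0.174 (VeptpWT), 0.419 (VeptpiECKO), and 0.0595 (PdgfbWT).

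Among the other members with the largest values, Rps16 of the small subunit rose with IgG by 0.81 (SE 0.15, adjusted p = 1.82e-05), and Rpl36a of the large subunit by 0.76 (SE 0.16, adjusted p = 0.000347) in VeptpWT mice. Rpl38, a large subunit protein known for its part in translating Hox mRNAs, went from 215, 234, 300, and 273 CPM to 480, 390, 394, and 400 CPM under the label PdgfbiKO. The 2 kidneys did not overlap there (0.69, SE 0.20, adjusted p = 0.0407), although leaving out any of 9 of the 16 libraries of the arm took its adjusted p past 0.05, up to 0.103. In PdgfbWT mice Rpl38 differed by 0.12 (SE 0.20, adjusted p = 0.665), with 168 to 503 CPM in CL and 322 to 403 CPM in UUO libraries.

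**Figure D4:**
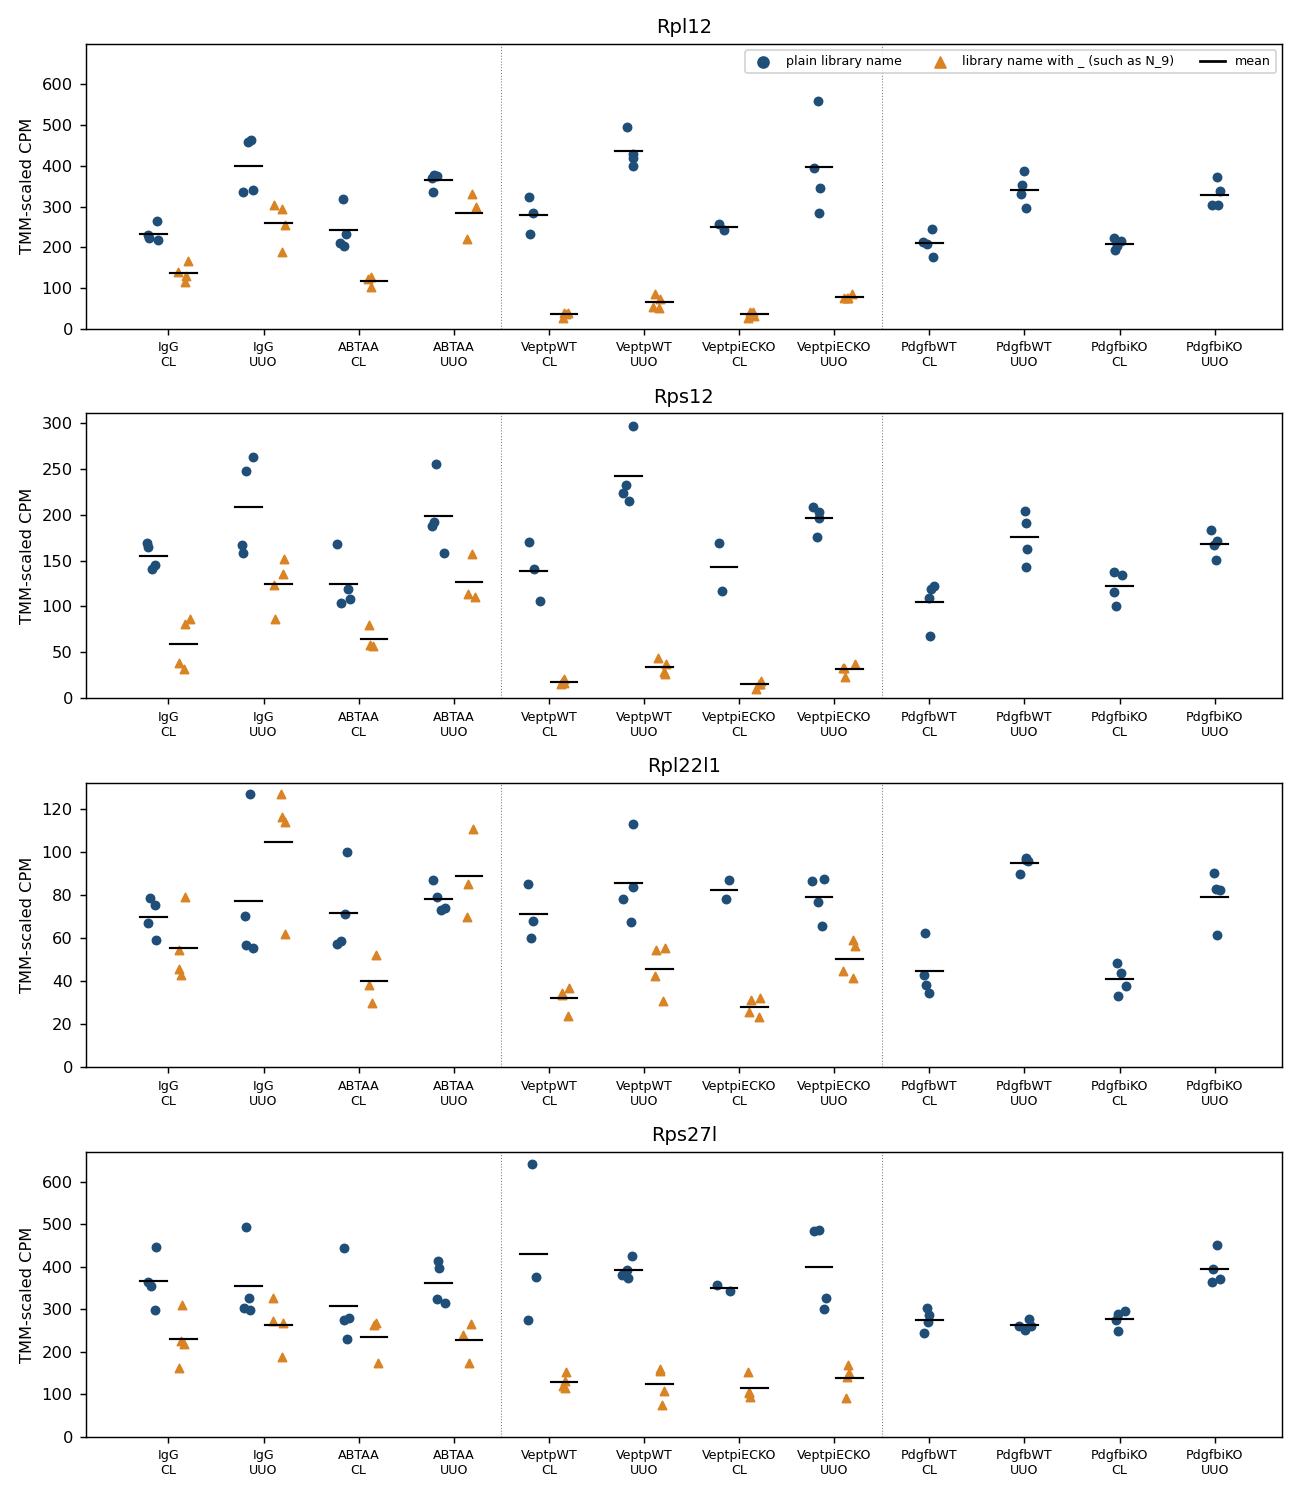
TMM-scaled CPM (y axis, from 0) of Rpl12, Rps12, Rpl22l1, and Rps27l in each of the 75 libraries by group (x axis), with circles for plain names, triangles for split names, and black bars for means. Rpl12 is higher in UUO within each form, Rpl22l1 separates CL from UUO most widely in the Pdgfb arm, and within the Pdgfb arm Rps27l is highest in the UUO libraries labelled PdgfbiKO, at 366 to 452 CPM.

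The stalk proteins Rplp0, Rplp1, and Rplp2 recruit translation factors to the ribosome. Rplp0 rose by 0.43 with IgG (SE 0.13, adjusted p = 0.00946) and by 0.43 with ABTAA (SE 0.14, adjusted p = 0.0169), and its values elsewhere were 0.30 (VeptpWT), 0.19 (VeptpiECKO), 0.01 (PdgfbWT), and 0.14 (PdgfbiKO), none of them called by the quasi-likelihood test, while DESeq2 called VeptpWT (adjusted p = 0.0416). Leaving out ABTAA CL replicate 1 or 3 or UUO replicate 7 ended the call of Rplp0 with ABTAA (adjusted p = 0.0628, 0.0528, and 0.0540), as did the exact test (0.0919), split names alone (0.0574), and plain names alone (0.213), which also ended the call with IgG (0.166). Rplp1 was at 714, 758, 701, and 763 CPM in plain IgG CL and at 658, 1032, 1026, and 1059 CPM in plain IgG UUO libraries, and at 372, 159, 209, and 429 CPM and 558, 419, 471, and 290 CPM with split names. The groups overlapped within both forms, and the fold change (0.45, SE 0.18, adjusted p = 0.0377) lost its call when any of 7 libraries was left out, with an adjusted p of up to 0.105. Rplp2 was at 177, 189, 219, and 290 CPM in plain ABTAA CL and 328, 414, 275, and 268 CPM in plain ABTAA UUO libraries, and at 35.8, 53.8, and 55.7 CPM and 74.9, 102, and 144 CPM with split names. It rose by 0.79 with ABTAA (SE 0.19, adjusted p = 0.00100) and by 0.39 in PdgfbWT mice (SE 0.13, adjusted p = 0.0182, or 0.0615 and 0.0562 without CL replicate 3 or UUO replicate 4), and with IgG its value was 0.38 (SE 0.18, adjusted p = 0.0869). The Rplp2 call with ABTAA was lost without the term for the form of name (0.63, adjusted p = 0.406), by the exact test (0.65, adjusted p = 0.280), and after thinning (adjusted p = 0.0684), and that in PdgfbWT mice after thinning (adjusted p = 0.261).

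Several members are known for roles outside or beside the ribosome. Rpsa, also known as the laminin receptor precursor, rose by 0.63 with IgG (SE 0.12, adjusted p = 5.81e-05), 0.50 with ABTAA, and 0.48 in VeptpWT mice, and was not called elsewhere (0.23, 0.02, and 0.22). Rpl5 and Rpl11, which with 5S RNA can bind MDM2, differed from each other in calls: Rpl5 rose by 0.38 with ABTAA (SE 0.12, adjusted p = 0.0145) and was not called by that test in the other mice (-0.04 to 0.25; DESeq2 with IgG, adjusted p = 0.0413), and Rpl11 was not called in any (-0.09 to 0.14). Leaving out ABTAA UUO replicate 7 ended the Rpl5 call (adjusted p = 0.0552), and leaving out 1 library made Rpl11 a call with ABTAA (adjusted p = 0.0434). Without TMM factors the PdgfbWT values of Rpl5 and Rpl11 turned from -0.04 and -0.09 to 0.34 and 0.29. Both were then called (adjusted p = 0.0129 and 0.0452). Rps6, the target of the S6 kinases, rose by 0.37 with IgG (SE 0.15, adjusted p = 0.0468) and 0.41 with ABTAA (SE 0.16, adjusted p = 0.0440), calls that were lost without any of 22 and 14 of the 30 libraries (adjusted p up to 0.164 and 0.147). In PdgfbWT mice Rps6 stood at -0.33 (SE 0.16, adjusted p = 0.103).

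Rps19, mutated in Diamond-Blackfan anaemia, rose by 0.43 (adjusted p = 0.0147), 0.56 (adjusted p = 0.00415), and 0.43 (adjusted p = 0.0313) in IgG-treated, ABTAA-treated, and VeptpWT mice, and the last call was lost without any of 8 libraries (adjusted p up to 0.0892). Rps27a, translated as a fusion with ubiquitin, rose by 0.48 in both IgG-treated and VeptpWT mice and by 0.46 in ABTAA-treated mice (adjusted p = 0.00469, 0.0156, and 0.0135). X-linked Rps4x rose by 0.47, 0.47, and 0.52 in IgG-treated, ABTAA-treated, and VeptpWT mice, and its value in PdgfbWT mice was -0.08, or 0.30 without TMM factors. Rpl13a, known for silencing certain mRNAs after release from the ribosome, rose by 0.43 and 0.58 with IgG and ABTAA, and Rps18 of the small subunit by 0.49 and 0.59 (adjusted p = 0.00780 and 0.00342). The Rps18 call with IgG was lost by the exact test (adjusted p = 0.0530), without the term for the form of name (0.0591), after thinning (0.0681), and in plain (0.0551) or split names alone (0.0906), and that with ABTAA in split names alone (0.0744). In VeptpiECKO mice, PdgfbWT mice, and libraries labelled PdgfbiKO, the 8 genes Rpl5, Rpl11, Rps6, Rps19, Rps27a, Rps4x, Rpl13a, and Rps18 were not called by the quasi-likelihood test, with values of -0.33 to 0.39, although DESeq2 called Rpl13a in VeptpiECKO mice (adjusted p = 0.0331). Without TMM factors all of them except Rps6 were called higher in PdgfbWT mice, with values of 0.29 to 0.67. Rps2, a small subunit protein, was called lower in PdgfbWT mice, at 281, 316, 317, and 311 CPM in CL and 296, 250, 189, and 117 CPM in UUO libraries. The 2 groups overlapped, the log2 fold change was -0.52 (SE 0.19, adjusted p = 0.0347), and the call was lost without CL replicate 2, 3, or 4 or UUO replicate 3 or 4 (adjusted p up to 0.135). Without TMM factors Rps2 was at -0.14 (adjusted p = 0.554), after thinning at -0.30 (adjusted p = 0.478), and by the exact test its adjusted p was 0.0531.

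Rpl22l1, the paralog of Rpl22, went from 42.9, 62.5, 34.6, and 38.4 CPM in PdgfbWT CL to 97.2, 89.8, 96.2, and 95.9 CPM in PdgfbWT UUO libraries. Under the label PdgfbiKO it went from 37.8, 33.1, 48.5, and 43.7 CPM to 61.2, 82.2, 82.7, and 90.0 CPM. CL and UUO did not overlap in either, and the log2 fold changes were 1.09 (SE 0.16, adjusted p = 8.47e-06) and 0.98 (SE 0.18, adjusted p = 0.00127), the largest among called members of those mice. It also rose by 0.52 with ABTAA (SE 0.21, adjusted p = 0.0492), 0.42 in VeptpWT (SE 0.16, adjusted p = 0.0381), and 0.56 in VeptpiECKO mice (SE 0.17, adjusted p = 0.0186), and stood at 0.49 with IgG (SE 0.20, adjusted p = 0.0504). In plain VeptpiECKO libraries alone it was -0.02, at 77.9 and 87.0 CPM in CL and 65.4, 86.7, 87.6, and 76.7 CPM in UUO kidneys, while split names gave 25.7, 32.2, 23.3, and 31.2 CPM and 59.0, 41.5, 44.9, and 56.5 CPM. Its calls with ABTAA, in VeptpWT, and in VeptpiECKO mice were lost without any of 16, any of 8, and any of 3 libraries (adjusted p up to 0.143, 0.114, and 0.0644), the last being CL replicates 3 and 5 and UUO replicate 5.

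Rps27l, the paralog of Rps27 and a known target of p53, differed after obstruction between kidneys labelled PdgfbiKO and PdgfbWT kidneys. PdgfbWT UUO libraries had 277, 260, 252, and 261 CPM and those labelled PdgfbiKO had 371, 452, 366, and 395 CPM, against 303, 287, 269, and 243 CPM and 297, 288, 250, and 276 CPM in the CL kidneys. In these TMM-scaled values, all 4 obstructed kidneys labelled PdgfbiKO lay above the other 12 kidneys of the arm. The share of all genes that did so was not computed. TMM factors of the UUO libraries were 1.16 to 1.24 in PdgfbWT and 0.885 to 1.03 under the label PdgfbiKO, so the scaling widens that gap. The log2 difference between UUO kidneys was 0.59 (SE 0.12, adjusted p = 0.000629), or 0.31 without TMM factors (adjusted p = 0.0600), and the responses to UUO differed by 0.58 (SE 0.17, adjusted p = 0.0284), with 0.51 (SE 0.12, adjusted p = 0.00961) under the label PdgfbiKO (0.0523 without UUO replicate 2) and -0.07 (SE 0.12, adjusted p = 0.685, or a value of 0.30 without TMM factors) in PdgfbWT mice. The interaction was lost when PdgfbiKO CL replicate 3 or 4, PdgfbWT UUO replicate 2, 3, or 4, or PdgfbiKO UUO replicate 2 was left out (adjusted p up to 0.0789), and without TMM factors the responses differed by 0.29 (adjusted p = 0.317). It was also lost for Rps27l without the low-count filter (adjusted p = 0.129) and after thinning (0.138). Rps27l was not called after UUO in the other mice (-0.08 to 0.23).

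Rpl36al, the paralog of Rpl36a, was lower in UUO than in CL kidneys of PdgfbWT mice, at 311, 344, 256, and 301 CPM in CL and 281, 228, 230, and 213 CPM in UUO libraries. These overlapped, and the fitted change was -0.35 (log2, SE 0.13, adjusted p = 0.0345), or 0.03 without TMM factors. Under the label PdgfbiKO it was at 289, 283, 314, and 286 CPM and 374, 272, 303, and 315 CPM (0.10, SE 0.13, adjusted p = 0.741). Between the UUO kidneys of the 2 genotypes it was higher under the label PdgfbiKO by 0.40 (SE 0.13, adjusted p = 0.0315), or 0.11 without TMM factors (adjusted p = 0.528). Both Rpl36al calls were also lost without the low-count filter (adjusted p = 0.127 and 0.111) and after thinning (0.306 and 0.475), and the first by the exact test (0.0754). Leaving out any of 6 libraries took either call past 0.05, with adjusted p of up to 0.109 for the first and 0.101 for the second. Rpl7l1, a paralog of Rpl7 that works in assembly of the large subunit, was not called after UUO in any mice (-0.19 to 0.39). Of the rest, Rpl10l, Rpl39l, and Rpl3l had 1, 5, and 144 counts over all libraries and were not tested. Rps27rt was tested in the Veptp and Pdgfb arms with SE of 0.36 to 0.50 and no call. Under the label PdgfbiKO its value of 1.32 was the highest of the members there, and leaving out 1 library made it a call (adjusted p = 0.0204). The low-count row Rps19bp1 (833 counts) was tested in the Veptp arm with values of 0.12 and 0.43, neither called.

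Few members were called between treatments or genotypes, and few of all genes were called in these comparisons of the ABTAA and Veptp arms. Between ABTAA- and IgG-treated mice 0 members were called in UUO kidneys, in CL kidneys, or in the difference between responses, by edgeR's quasi-likelihood test or by DESeq2, and percent called over all genes was 0 by the former. At an unadjusted p under 0.05 stood 3, 6, and 0 of the 81 members, and 497, 563, and 505 of all genes. The members' medians were -0.06, -0.14, and 0.07, and single members, named after their values were seen as the extremes, ran from -0.31 (Rps7) to 0.42 (Rps28) between UUO kidneys. In CL kidneys 70 of the 81 had lower values with ABTAA, and Rpl10a, again named as the extreme, was at -0.31.

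Between VeptpiECKO and VeptpWT mice 0 of 83 were called by either tool, beside 0.0168% of all genes in UUO kidneys, 0.0168% in CL kidneys, and 0.00839% for the difference between responses. Unadjusted p under 0.05 were found for 0, 5, and 2 members (0%, 6.02%, and 2.41%), beside 8.74%, 5.79%, and 6.81% of all genes. The members' medians were 0.01, 0.12, and -0.11. The second turned to -0.16 without the term for the form of name and to -0.15 by the exact test. The fewer calls in VeptpiECKO (8) than in VeptpWT mice (35) therefore came without a called difference in any member's response. Single values of that difference ran from -0.56 (Rps28, of the small subunit, named as the extreme) to 0.31 (Rps19bp1).

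Between libraries labelled PdgfbiKO and PdgfbWT, 0 of 82 members were called in CL kidneys by either tool (0 at an unadjusted p under 0.05), and 0% of all genes were called. In UUO kidneys 2 were higher, Rps27l and Rpl36al, and 0 lower, against 12% and 6.6% of all genes. Without TMM factors 0 were higher and 5 lower of the 82, where 3159 of the 10923 genes tested were called, 657 of them higher. The count between UUO kidneys, 2 with TMM factors, was 1 without PdgfbWT UUO replicate 2 or 3 or PdgfbiKO UUO replicate 1, 3, or 4. In the difference between responses, 6.66% of all genes (8.55% either way) and 1 member, Rps27l, were higher. The members' median between UUO kidneys was 0.15 beside -0.02 for all genes. In the same kidneys proximal tubule markers were higher in 3 of 4, with a median of 1.17, and fibroblast markers lower in 3 of 3, with a median of -0.97. Loop of Henle markers were higher in 2 of 2 (median 0.94), distal and collecting duct markers in 2 of 3 (0.97), and red cell markers in 2 of 2 (0.89), while endothelial markers were lower in 2 of 3 (-0.86) and leukocyte markers in 2 of 4 tested (-0.71). Summed levels of each of these 7 lists did not overlap between the UUO kidneys, and the part of these cell types was not tested.

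Genes that make, assemble, or control ribosomes were described beside the members. Rack1, a protein of the small subunit outside the symbol rule, rose with IgG (0.46, SE 0.13, adjusted p = 0.00313), with ABTAA (0.50, SE 0.13, adjusted p = 0.00386), and in VeptpWT mice (0.45, SE 0.15, adjusted p = 0.0172). Of 18 translation factors and other known TOP mRNAs, 8 rose with IgG, 8 with ABTAA, 5 in VeptpWT, 2 in VeptpiECKO, and 3 in PdgfbWT mice, and 2 under the label PdgfbiKO, and 0 fell. Shares of all genes called higher were 18.9%, 15.4%, 16.6%, 10.7%, 17.9%, and 3.95% in that order, near those of the list in VeptpiECKO and PdgfbWT mice. The list's medians were 0.26, 0.30, 0.25, 0.13, 0.04, and 0.14 in that order. Hnrnpa1, an RNA-binding protein, rose by 1.22 with IgG (SE 0.12, adjusted p = 1.07e-10), Npm1, a nucleolar chaperone, by 0.81 (SE 0.11, adjusted p = 6.06e-08), and Pabpc1, which binds poly(A), by 0.60 (SE 0.12, adjusted p = 0.0001).

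Of 30 genes for ribosome assembly and ribosomal RNA synthesis, 28 to 30 were tested, and 11, 6, 6, 4, 8, and 0 rose in the same order, with 1 lower in PdgfbWT mice. The VeptpWT and VeptpiECKO counts were near the shares of all genes. Nop58 and Nop56, core proteins of box C/D snoRNPs, rose by 0.87 (SE 0.17) and 0.88 (SE 0.18) with IgG, and the nucleolar protein Mybbp1a by 1.00 (SE 0.17). Of 9 genes known to control ribosomal protein mRNA, 8 were tested and 3 rose in each of the 6 comparisons, while 1, 2, 1, 1, 2, and 0 fell. Myc, a transcription factor that drives ribosome genes, rose by 2.37 (SE 0.34, adjusted p = 2.59e-07), Eif4ebp1, a translation repressor that mTOR inactivates, by 1.69 (SE 0.22, adjusted p = 5.91e-08), and Zfas1, a TOP host RNA of snoRNAs, by 0.99 (SE 0.20, adjusted p = 7.79e-05) with IgG.

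Members differed between the 2 forms of library name. In the ABTAA arm 51 of 81 were lower and 5 higher under split names, against 21.2% and 18.6% of all genes (39.7% either way), with a median log2 difference of -0.48 beside 0.01. In the Veptp arm 81 of 83 were lower and 1 higher, against 28.4% and 34% of all genes (62.4% either way), with a median of -2.10 beside 0.09. The 2 arms hold different libraries, and the members' differences between forms correlated across them (Pearson r = 0.77, Spearman rho = 0.78, across 81 genes, which are not independent and share depth and library form). Libraries of the 2 forms also differed in the rows Gm42418 and AY036118, as given above, and in cell markers. In the Veptp arm red cell markers were lower under split names in 2 of 2 (median -2.77), with summed levels of 156 to 1949 CPM in plain and 27.2 to 114 CPM in split libraries. Loop of Henle markers were lower in 2 of 2 (median -1.02) and podocyte markers in 2 of 2 (median -1.26). In the ABTAA arm red cell markers were lower in 2 of 2 (median -0.94), with 181 to 1738 CPM and 57.1 to 411 CPM, distal and collecting duct markers were lower in 2 of 3, and leukocyte markers were higher in 3 of 4 tested. The part of these in the members' differences was not tested.

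Rplp2 fell furthest in the ABTAA arm, by 2.06 on the log2 scale (SE 0.13, adjusted p = 5.03e-15), and was at 254 to 293 CPM in plain and 22.9 to 74.1 CPM in split IgG CL libraries. Rps29, a zinc-binding small subunit protein, also fell (adjusted p = 6.98e-09), as did Rpl36, of the large subunit, by 1.38 (SE 0.14). Rpl3, a large subunit protein near the peptidyl transferase center, was higher by 0.63 (SE 0.09, adjusted p = 1.19e-06), Rpsa by 0.35, and Rpl7l1 by 0.22 (adjusted p = 0.0270, or 0.0668 without ABTAA CL replicate 6). In the Veptp arm Rps21, of the small subunit, and Rplp2 had log2 differences of -3.60 (SE 0.15) and -3.22 (SE 0.12). The forms were kept apart because Rplp1 was known to differ between them, so its levels are a description. It stood at 754, 558, and 949 CPM in plain and 81.8, 59.6, 62.2, and 85.0 CPM in split VeptpWT CL libraries. Rplp0, the third stalk protein, fell by 1.02 (SE 0.10) there and was not called in the ABTAA arm by the quasi-likelihood test (0.20, adjusted p = 0.0979), though DESeq2 called it there (0.23, adjusted p = 0.0471). Rps19bp1 was the member that was higher, by 1.82 (SE 0.22, adjusted p = 3.23e-09), and Rpl7l1 differed by 0.14 (adjusted p = 0.133). Neither is among the core subunit proteins.

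Members with shorter transcripts tended to have lower values under split names. Over members, the difference between forms correlated with log2 transcript length (GENCODE vM21) at a Pearson r of 0.41 (Spearman rho 0.46, 81 genes) in the ABTAA and 0.30 (0.38, 83 genes) in the Veptp arm, and over other genes at 0.26 (0.21) and 0.13 (0.05). Members under 600 bases had medians of -0.92 in the ABTAA arm (19 genes) and -2.59 in the Veptp arm (20 genes). Other genes of that length had -0.75 (142 genes) and -1.24 (205 genes). From 1000 to 2000 bases the members' medians were -0.25 and -1.73 (24 genes in each arm), against -0.07 and 0.05 in other genes. From 600 to 1000 bases they were -0.26 (32 genes) and -1.86 (33 genes), against -0.44 and -0.99 in other genes. Members of the Veptp arm thus lay below other genes of their length in each of these bins, and those of the ABTAA arm did not from 600 to 1000 bases. Of the 18 TOP mRNAs 3 fell and 6 rose under split names in the ABTAA arm (median 0.13), while 14 fell and 1 rose in the Veptp arm (median -0.72).

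**Figure D5:**
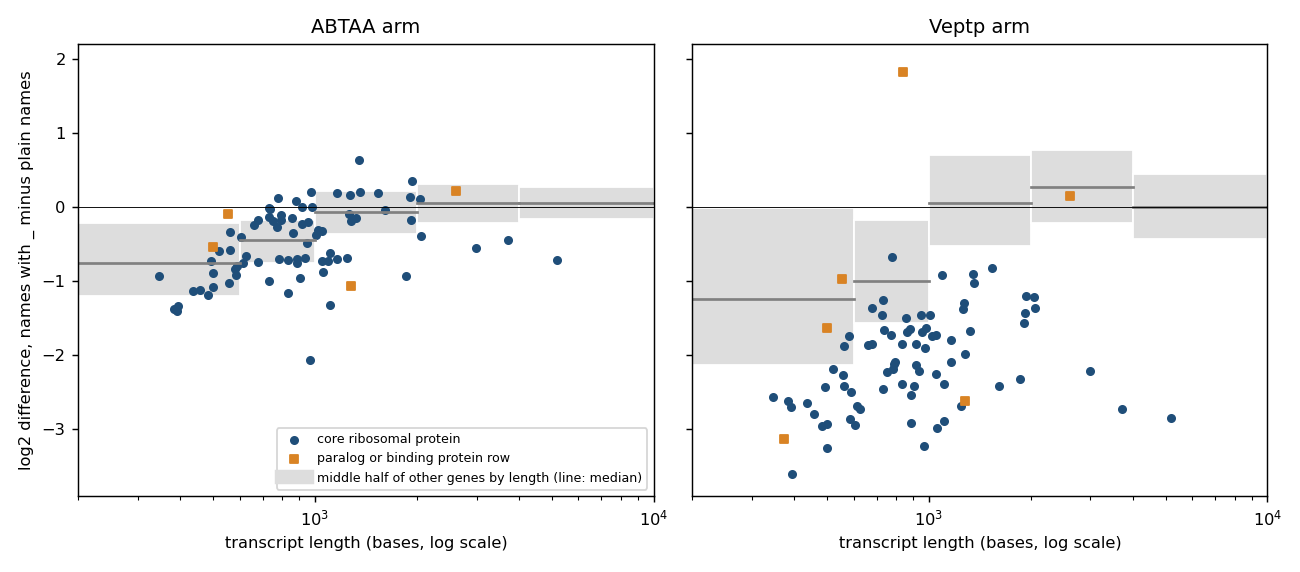
Log2 difference between split and plain library names (y axis) of each member against the length of its transcript (x axis, bases, log scale), in the ABTAA and the Veptp arm, with squares for paralogs and Rps19bp1, and grey boxes and lines for the quartiles and median of other genes by length bin. Core members lie below 0 for the most part in the ABTAA arm and throughout in the Veptp arm.

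The response to UUO itself was compared between the forms with an interaction term added after seeing the data. In it 0 members were called in either arm by edgeR's quasi-likelihood test, where 0% (ABTAA arm) and 0.369% (Veptp arm) of all genes were, and 4 and 11 members had an unadjusted p under 0.05 (4.94% and 13.3%, beside 9.63% and 9.41% of all genes). The members' medians were 0.10 and 0.30 beside -0.02 and 0.00 for all genes, with 70 of 81 and 77 of 83 responses larger under split names. Rpl22l1 had the largest value in the ABTAA arm (0.93, adjusted p = 0.168) and Rps18 in the Veptp arm (0.81, adjusted p = 0.202).

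Ribosomal protein genes have many processed pseudogenes that resemble their mRNA. GENCODE vM21 lists 9930 processed pseudogenes of all genes, of which 0 were in the count table by symbol, and 5 Rpl or Rps pseudogene rows outside that class were left out of the members. How reads that match several copies were treated is not given in the sources used here, and values of single members, and of near-identical rows such as Rps27 with Rps27rt and Rpl36a with Rpl36al, are therefore uncertain to that extent.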

How the data were processed

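Kidney RNA was made into Smart-seq3 libraries with molecular identifiers (UMIs), 4 wells per sample. The authors deposited counts of UMIs per gene, with wells merged. The submitters' processing notes name STAR 2.7.3a, UMI-tools 1.1.4, featureCounts (Subread 1.4.6-p5), and mm10, and the gene annotation is not given in the sources used here. Groups were taken from the labels. Which CL and UUO kidneys came from the same mouse is not given in the labels, and p-values measure the spread between libraries.

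Counts were analyzed in R 4.3.3 with edgeR 4.0.16 (TMM factors, filterByExpr, quasi-likelihood test), in 1 model per arm, with 9579, 11916, and 10923 genes tested in the ABTAA, Veptp, and Pdgfb arms. Benjamini-Hochberg adjustment ran over all genes of the arm, at a threshold of 0.05. CPM are TMM-scaled, and SE were derived from the quasi-likelihood F. The code was tested on simulated data. Members and gene lists were chosen with earlier results of these data known. Genes were named by rule: the stalk genes, Rpsa, a fixed set of members with known further roles, the paralogs, and the called members with the largest changes in each comparison (3 in each direction), with 3 called genes of each other list by the lowest adjusted p with IgG. Others are marked where named. No 2 libraries of a group agreed within sampling noise (smallest chi-square per degree of freedom 1.41). In ABTAA-treated mice, CL and UUO libraries with the same number in a split name deviated together (correlations of 0.199 to 0.455 in 3 pairs), so they were treated as paired in the replicate block. Alternatives were DESeq2 1.42.0, edgeR's exact test, no TMM factors, TMM factors without the members, no low-count filter, thinning to the shallowest library, each form of name alone, no term for the form, the replicate block, and leaving out each library. The number of molecules limits the precision of each value, and low rows such as Rps19bp1 are the least precise. One item of the gene lists is not reported here.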

Additional observations from a re-analysis of the deposited data

Results flagged for a closer look

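Sets of 4 libraries of 1 group and form were tested for a library that stood apart from the other 3. The values were the member share of counts and the levels of Rpl12, Rps12, Rpl22l1, Rps27l, Rpl36al, Rplp1, Rplp2, and Rps2. Of these 144 tests 3 flagged a library, and chance flags about 1 test in 20. Rps27l was at 495 CPM in IgG UUO replicate 4 (library D7), against 298, 304, and 326 CPM in the other plain IgG UUO libraries. Rplp1 was at 658 CPM in IgG UUO replicate 1 (C6), against 1026, 1032, and 1059 CPM. Rps2 was at 159 CPM in IgG UUO replicate 8 (P_8), against 217, 221, and 225 CPM in the other split libraries of that group. The response of Rps27l to UUO differed between libraries labelled PdgfbiKO and PdgfbWT by 0.58 on the log2 scale in the test of the difference itself (edgeR adjusted p = 0.0284).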

How the results depend on the processing

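Without TMM factors, which put the median of all genes at 0.13 to 0.41 in the ABTAA, IgG, VeptpWT, VeptpiECKO, and PdgfbWT comparisons of UUO with CL, 71 members were called with IgG, 70 in VeptpWT, 30 in VeptpiECKO, 67 in PdgfbWT, and 25 under the label PdgfbiKO, and 5 between the UUO kidneys of the Pdgfb arm. The members' medians became 0.46 in PdgfbWT, -0.14 between those UUO kidneys, -0.16 for the difference of responses, and -1.63 between forms in the Veptp arm, and PdgfbWT values reversed for Rpl36al (0.029), Rps27l (0.30), Rpl5 (0.34), Rpl11 (0.29), and Rps4x (0.30). Without the term for the form of name, 21 (IgG), 25 (ABTAA), 0 (VeptpWT), and 0 (VeptpiECKO) were called. Plain names alone gave 8, 10, 3, and 0 in the same order, and edgeR's exact test 26, 23, 0, and 0. Split names alone gave 25 with ABTAA (30.9%, beside 11% of all genes called higher). The median between VeptpiECKO and VeptpWT CL kidneys was -0.16 without the term and -0.15 by the exact test. Thinning to the shallowest library gave 32 (ABTAA), 3 (VeptpWT), 0 (VeptpiECKO), 6 (PdgfbWT), 1 (PdgfbiKO), 1 (UUO kidneys of the Pdgfb arm), and 0 (their difference of responses), and a PdgfbWT median of 0.25. Fewer counts enter the thinned fit by construction, and the cause of the other changes was not tested. Without the low-count filter the difference of responses gave 0. Rpl22l1 in VeptpiECKO mice reversed with thinning (-0.042) and with plain names alone (-0.019).

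With the replicate block 65 (80.2%) were called with ABTAA, beside 14.4% of all genes called higher. In the Veptp arm same-numbered libraries had correlations of 0.098 to 0.544 (mean 0.304), beside a mean of -0.043 for different numbers. The ABTAA arm's means were 0.297 and -0.145. Different numbers reached 0.441 in the Veptp arm, above some same-numbered pairs, but 0.140 in the ABTAA arm, below every such pair. Veptp pairs with opposite genotype labels had 0.159 to 0.544, and those with the same label 0.098 to 0.509. The Veptp numbers were not taken to pair the samples, so the block was run there as an alternative alone. It joins libraries with opposite genotype labels wherever they share a number. The block called 27 in VeptpiECKO mice, Rps6, Rps18, Rps27a, Rps4x, and Rpl13a among them (32.9% of members, beside 12% of all genes called higher). In VeptpWT mice it called 24 (29.3%, beside 11.6%). With the block, and without TMM factors, the VeptpiECKO share thus lay above that of all genes. Leaving out single libraries gave 29 to 45 (IgG), 32 to 64 (ABTAA), 19 to 54 (VeptpWT), 3 to 12 (VeptpiECKO), 8 to 24 (PdgfbWT), 3 to 12 (PdgfbiKO), 1 to 3 (UUO kidneys of the Pdgfb arm), and 0 to 2 (their difference of responses). Between forms it gave 55 to 59 and 82 to 82.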
